A study of Mus musculus with 2 samples.

Results

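The 10 genes described here encode the mouse MHC class II molecules and the proteins that load and switch them on: the classical chains H2-Aa, H2-Ab1 and H2-Eb1, the invariant chain Cd74, the peptide-loading chains H2-DMa, H2-DMb1 and H2-DMb2, their modulators H2-Oa and H2-Ob, and the transactivator Ciita. They were taken by name, all 10 of the 10 listed symbols being found once each among the 55450 genes of the deposited UMI matrices. No measured value was used as a filter, but earlier results of these data were known when they were chosen. Expression was measured by 10x Genomics 3' v3 single-cell sequencing of FACS-sorted CD45+ cells from B16F10 tumours, grown from a transplantable mouse melanoma line injected under the skin and collected at day 10. The WT library came from Kcnj2f/f mice, in which both copies of the potassium channel gene Kcnj2 (Kir2.1) are flanked by loxP sites and intact. The KO library came from Lyz2-Cre-Kcnj2f/f mice, which carry the same floxed alleles and Cre recombinase driven from the lysozyme 2 gene, active mainly in macrophages, monocytes and neutrophils. Tumours of 3 mice were pooled in each library and each genotype is 1 library, so no test between genotypes was possible. Every interval given covers counting error only, since neither mice nor libraries were replicated. The sources used here give neither age nor sex of the mice.

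MHC class II molecules display peptides from engulfed material to CD4 T cells, and they are held mainly by dendritic cells, B cells and activated macrophages. The invariant chain Cd74 escorts newly made class II dimers to the endosome, where the DM dimer exchanges its remnant for antigenic peptide and the DO dimer restrains DM. Ciita binds no DNA itself but docks on a promoter complex of RFX and NF-Y factors and is the master switch of the classical class II genes.

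Promoter stretches of 6 members are printed here because NF-Y and RFX are the factors on which Ciita docks. All 8 MHC-encoded members lie on chromosome 17 of the GRCm38 build, between H2-Oa (chr17:34092340-34095234, plus strand) and H2-Eb1 (chr17:34305867-34316674, plus strand). In RefSeq promoters of the GRCm38.p6 build (250 bases before to 50 after each start), 7 of the 10 genes were matched. Capitals mark TGATTGG, the reversed CCAAT box bound by NF-Y, and, where present, a motif like the X box bound by RFX, which reads AAC, any 3 bases, TGA, any base and G. Each line runs 5′ to 3′ on the gene's own strand.
H2-Oa: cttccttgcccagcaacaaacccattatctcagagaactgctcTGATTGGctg
H2-DMb2: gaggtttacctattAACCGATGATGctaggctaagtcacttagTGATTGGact
H2-DMb1: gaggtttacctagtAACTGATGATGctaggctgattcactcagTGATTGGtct
H2-Ob: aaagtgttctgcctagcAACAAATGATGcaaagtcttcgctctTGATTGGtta
H2-Aa: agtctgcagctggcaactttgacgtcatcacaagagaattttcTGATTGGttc
H2-Eb1: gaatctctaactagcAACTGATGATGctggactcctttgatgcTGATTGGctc

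These 53-base windows sit at chr17:34092291-34092343 for H2-Oa, chr17:34145114-34145166 for H2-DMb2, chr17:34153085-34153137 for H2-DMb1, chr17:34238803-34238855 for H2-Ob, chr17:34287864-34287916 (minus strand) for H2-Aa and chr17:34305763-34305815 for H2-Eb1. TGATTGG was searched on both strands and occurred in 7.82% of all 32851 RefSeq promoters of this length and in 6 of the 7 matched genes. The X-box-like motif, also searched on both strands, occurred in 2.88% of promoters and in 4 of the 7. The X-box-like motif followed by TGATTGG within 40 bases was found in 8 promoters (0.0244%), of which H2-DMb1, H2-DMb2, H2-Eb1 and H2-Ob were 4. Of the 6 windows, those of H2-Oa and H2-Aa hold no X-box-like match, and those of H2-DMb1 and H2-DMb2 lie within the GENCODE spans of their genes, since the RefSeq starts differ. The motifs were chosen after the promoters of these genes had been read, and a match describes letters, not binding.

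The WT library held 9677 barcodes and 55219440 UMIs and the KO library 6356 barcodes and 57047535 UMIs. Filters left 8936 WT cells with a median of 4398.5 UMIs and 5686 KO cells with a median of 8013, so KO cells were the deeper ones. The libraries shared 63 cell barcodes, 0.651% of the WT and 0.991% of the KO barcodes. Without those barcodes the log2 ratio of KO over WT that moved most among the gene groups given below was that of the DO sum in cDC1-like cells, from 0.08 to 0.07. Kcnj2 had 23.0 CPM (UMIs of the gene per 1000000 UMIs of the class, the unit of every level below) in WT and 9.12 CPM in KO macrophage-like cells. Lyz2, the locus that carries the Cre, had 8145 and 1437 CPM there. The sources used here do not say which exon is flanked by loxP, so 3' UMIs of Kcnj2 do not by themselves check the deletion.

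Clustering was done without the class II genes, so their own levels did not decide which cells were grouped. Clusters were named from marker genes, none of which is a member, and carry the suffix -like. In WT and KO, 752 and 1069 cells were macrophage-like, 211 and 387 monocyte-like, 208 and 348 conventional type 1 dendritic (cDC1)-like, 591 and 1082 conventional type 2 dendritic (cDC2)-like, 398 and 550 migratory dendritic (DC)-like, 211 and 143 plasmacytoid dendritic (pDC)-like and 1823 and 393 B cell-like. CD8 T cell-like cells (1385 and 294) are not known to make class II in the mouse. They were used as the reference for free RNA, with a limit for H2-Oa given below. They were among the lowest of the other classes. Classical levels in WT and KO were 815 and 598 CPM in NK cell-like and 1820 and 532 CPM in gamma-delta T cell-like cells. Neutrophil-like cells had 2146 and 527 CPM, mast cell or basophil-like cells 2816 and 465 CPM and regulatory T cell-like cells 7858 and 3867 CPM. Unnamed clusters held 19.6% of WT and 7.60% of KO cells.

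Classical class II transcripts were highest in cDC2-like cells and then stepped down through cDC1-like, migratory DC-like, B cell-like and macrophage-like, pDC-like and monocyte-like cells. In cDC2-like cells H2-Aa, H2-Ab1 and H2-Eb1 together took 26164 CPM in WT and 28323 CPM in KO, the highest level of any class. The cDC1-like cells had 22877 and 25117 CPM, and the migratory DC-like cells 15614 and 16681 CPM. These 3 dendritic classes did not overlap between places in the order when both libraries were taken as the range.

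Macrophage-like cells had 8763 CPM in WT and 10387 CPM in KO. B cell-like cells had 8405 and 10746 CPM. The ranges of these 2 classes overlapped, so no order between them can be given. Below them, pDC-like cells had 4057 and 3856 CPM and monocyte-like cells 1919 and 1635 CPM. All 7 lay above the CD8 T cell-like level of 286 CPM in WT and 462 CPM in KO. But the monocyte-like range overlapped those of mast cell or basophil-like, neutrophil-like and gamma-delta T cell-like cells. The pDC-like range overlapped that of regulatory T cell-like cells, at 7858 and 3867 CPM, whose classical UMIs came mostly from few cells.

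**Figure D1:**
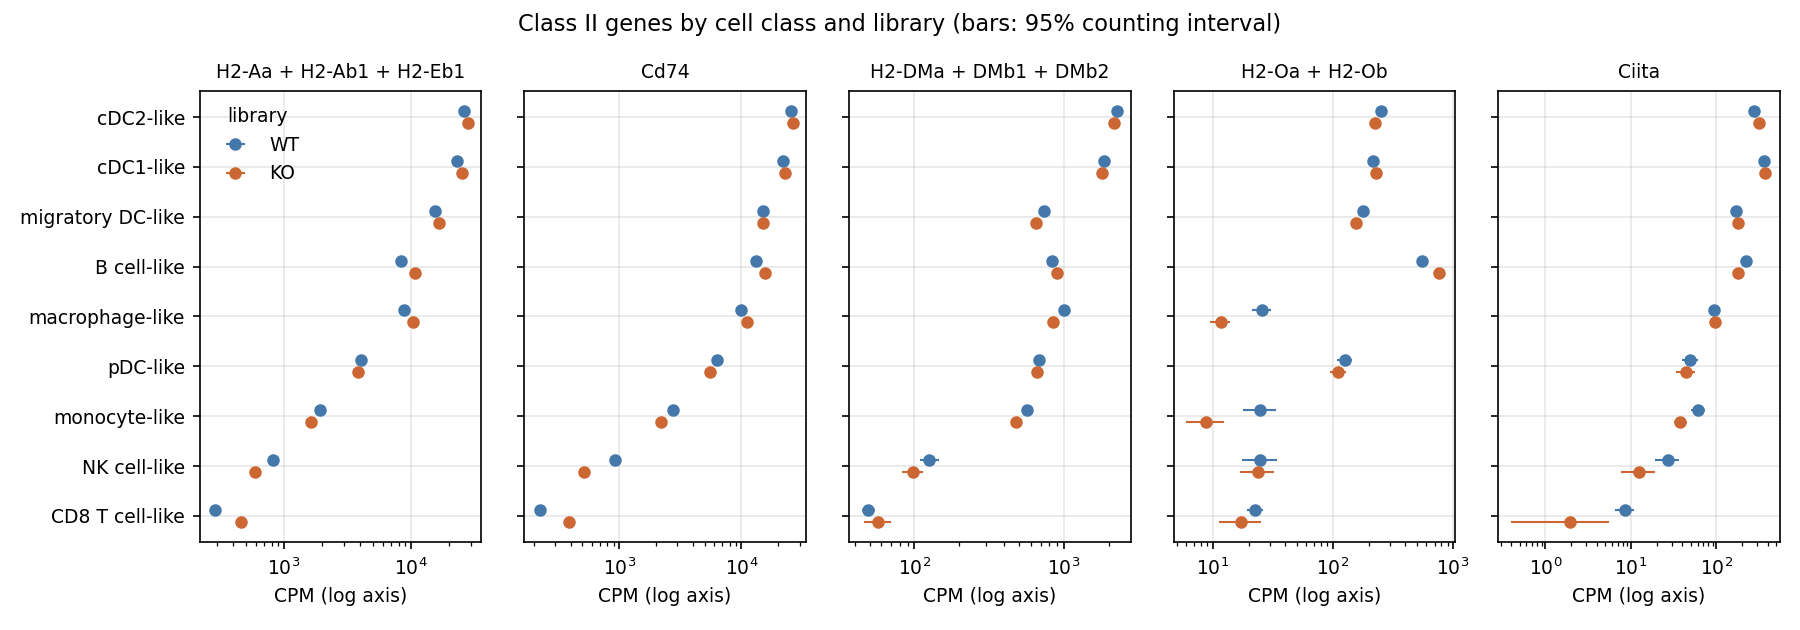
Levels of the 5 groups of genes (CPM, log axis) in 9 cell classes, with WT in blue and KO in orange and bars for the 95% counting interval. The conventional DC-like classes lead for the classical genes, Cd74, the DM genes and Ciita, whereas B cell-like cells lead for the DO genes.

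Each of the 3 classical genes followed nearly the same order. H2-Aa (chr17:34282744-34287823, minus strand), which encodes the I-A alpha chain, had 9690 CPM in WT and 10579 CPM in KO cDC2-like cells against 843 and 651 CPM in monocyte-like cells. H2-Eb1, the I-E beta chain, had 8583 and 9151 CPM in cDC2-like cells and 477 and 427 CPM in monocyte-like cells. H2-Ab1 (chr17:34257689-34269419, plus strand), the I-A beta chain, was the exception. Its cDC2-like range of 7891 to 8592 CPM overlapped the cDC1-like range of 7657 to 8481 CPM. H2-Ab1 made up 30.2% of the classical UMIs in WT and 30.3% in KO cDC2-like cells and 33.5% and 33.8% in cDC1-like cells. In migratory DC-like cells it made up only 20.4% and 21.7%. With 3179 and 3621 CPM there, H2-Ab1 overlapped the macrophage-like range of 2762 to 3376 CPM, while H2-Aa at 6639 and 7044 CPM stayed well above the macrophage-like 3271 and 3835 CPM. In migratory DC-like cells the I-A alpha chain transcript thus took 42.5% and 42.2% of the classical UMIs. UMIs of a 3' assay do not scale with transcript length, but how well each 3' end is captured differs between genes and was not measured.

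The classes also differed in how evenly their cells carried these transcripts. Per 10000 UMIs of a cell, the median cDC1-like cell held 201 classical UMIs in WT and 232 in KO, and the 10th and 90th percentiles lay at 95.5 and 309 in WT and at 115 and 338 in KO. The median macrophage-like cell held 37.0 in WT and 58.9 in KO, but the 10th percentile was 1.01 and 2.59 and the 90th 191 and 225. The macrophage-like class thus held cells with nearly no class II and cells at the level of the median cDC1-like cell. CD8 T cell-like cells had medians of 2.01 and 3.12.

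**Figure D2:**
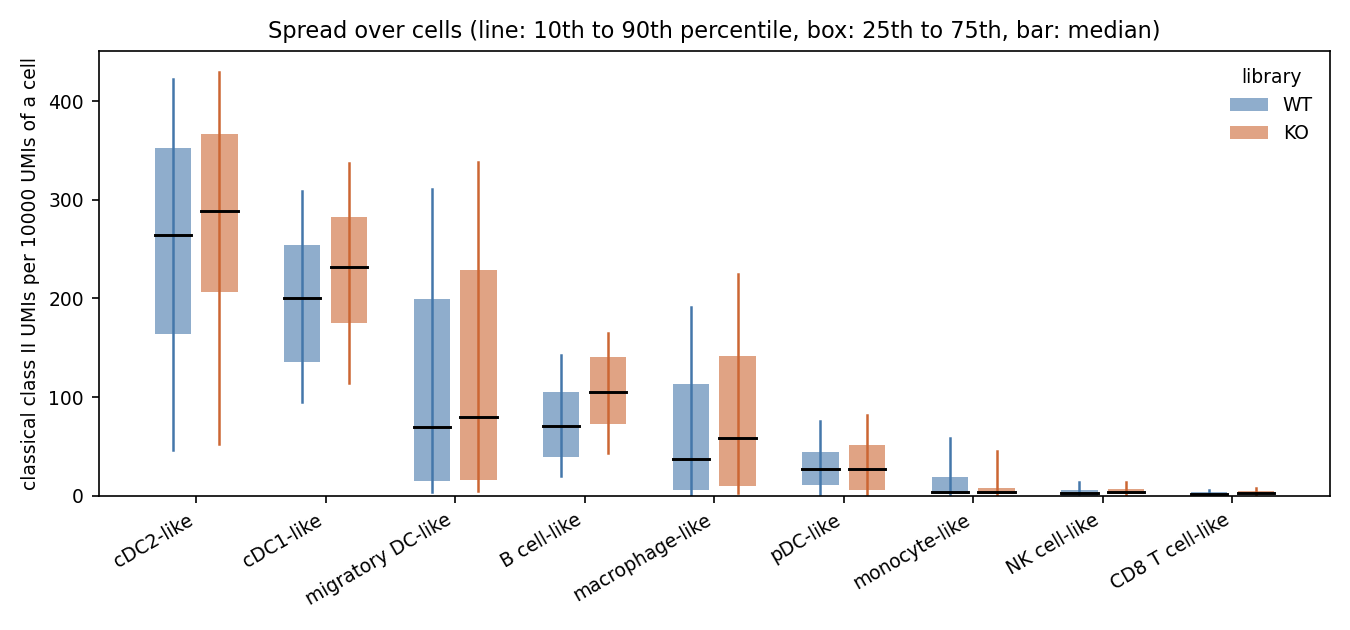
Classical class II UMIs per 10000 UMIs of a cell in 9 classes, as median (black bar), 25th to 75th percentile (box) and 10th to 90th percentile (line). Conventional DC-like cells of both libraries sit high, whereas macrophage-like and migratory DC-like cells reach from near 0 to above 190.

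The median monocyte-like cell lay within the range of CD8 T cell-like cells, at 3.90 in WT and 3.46 in KO when the T cell 90th percentile in KO was 7.73. The monocyte-like 90th percentile was 58.3 and 45.5, so the class level rested on a minority of cells. Migratory DC-like cells were uneven too, with medians of 69.5 and 79.6, 10th percentiles of 3.77 and 5.32 and 90th percentiles of 311 and 338. The pDC-like cells had medians of 27.6 and 27.2.

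Clusters within a class differed in level. Among macrophage-like cells, the cluster led by C1qa, C1qb and C1qc (complement genes of tissue macrophages) had 12931 CPM of classical transcripts in WT and 14271 CPM in KO. The larger cluster led by Arg1, Cxcl1 and Cxcl2 (arginase and neutrophil-attracting chemokines) had 7486 and 9754 CPM. A small cluster of 64 and 49 cells led by Ccl8, Pf4 and Mmp12 had 2144 and 2983 CPM, and its Ciita level was 4.32 CPM in WT and 5.01 CPM in KO, from 1 UMI in each library, against 166 and 189 CPM in the C1q-led cluster. The C1q-led cells were shallow, with a median of 2110.5 and 2707 UMIs against 8930.5 and 10160 in the Arg1-led cluster, and the part of depth in the difference was not tested.

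Dendritic clusters differed as well. Among cDC2-like cells the main cluster, led by Mgl2 and Cd209a, had 28576 CPM of classical transcripts in WT and 30647 CPM in KO, and the cluster led by Cd209d and Apod had 14404 and 14088 CPM. In that second cluster the 10th percentile of cells was 1.85 and 1.94 classical UMIs per 10000 and the 90th 350 and 345. The deep migratory DC-like cluster, led by Fscn1 and Ccl22, had 16968 and 17800 CPM, against 3502 and 4233 CPM in the shallow one led by Cacnb3.

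Cd74, the invariant chain, is encoded on chromosome 18. It was the most abundant member in every presenting class. It had 25556 CPM in WT and 26421 CPM in KO cDC2-like cells, 21819 and 22735 CPM in cDC1-like cells and 15010 and 15066 CPM in migratory DC-like cells. B cell-like cells had 13088 and 15524 CPM and overlapped the migratory DC-like range. Macrophage-like cells had 9979 and 11058 CPM, pDC-like cells 6376 and 5564 CPM and monocyte-like cells 2756 and 2219 CPM, all above the 223 and 388 CPM of CD8 T cell-like cells.

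Relative to the chains it escorts, Cd74 made up most in B cell-like, pDC-like and monocyte-like cells and least in the dendritic classes other than pDC-like cells. Of the Cd74 and classical UMIs together, Cd74 made up 60.9% in WT and 59.1% in KO B cell-like cells, 61.1% and 59.1% in pDC-like cells and 59.0% and 57.6% in monocyte-like cells. In cDC2-like cells it made up 49.4% and 48.3%, in cDC1-like cells 48.8% and 47.5% and in migratory DC-like cells 49.0% and 47.5%. Macrophage-like cells lay between these groups, at 53.2% and 51.6%.

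The DM genes, which encode the peptide-loading dimer, were highest in the same conventional dendritic classes, but migratory DC-like cells took a lower place than for the classical genes. H2-DMa, H2-DMb1 and H2-DMb2 together had 2267 CPM in WT and 2167 CPM in KO cDC2-like cells and 1869 and 1798 CPM in cDC1-like cells. Macrophage-like cells came next with 1002 and 844 CPM, overlapping the 830 and 900 CPM of B cell-like cells. Migratory DC-like cells had only 739 and 652 CPM, overlapping the 679 and 663 CPM of pDC-like cells although the classical levels of these classes did not overlap. As a share of DM and classical UMIs together, DM stood at 4.52% and 3.76% in migratory DC-like cells and at 22.7% and 22.6% in monocyte-like cells.

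The 2 DM beta genes were used differently by different cells. H2-DMb1 (chr17:34153072-34160230, plus strand) and H2-DMb2 (chr17:34143307-34151555, plus strand) are neighbours whose transcripts were identical at 94.6% of 1219 aligned bases, with a longest identical run of 221 bases, so the split of reads between them is uncertain. H2-DMb1 was the main beta gene of macrophage-like cells, with 532 CPM in WT and 425 CPM in KO against 27.2 and 15.4 CPM for H2-DMb2. B cell-like cells showed the reverse, with 95.9 and 93.2 CPM of H2-DMb1 and 414 and 416 CPM of H2-DMb2.

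As a share of both beta genes, H2-DMb2 made up 81.2% in WT and 81.7% in KO B cell-like cells and 74.96% and 69.7% in migratory DC-like cells. It made up 22.6% and 23.7% in cDC2-like cells and 10.7% and 12.03% in cDC1-like cells. Monocyte-like cells had 5.94% and 4.18% and macrophage-like cells 4.86% and 3.50%. In CPM, H2-DMb2 of migratory DC-like cells (295 and 234 CPM) overlapped that of cDC2-like cells (294 and 279 CPM). The same 2 genes counted in the same droplets of 1 library thus gave shares from 3.50% to 81.7%, and the classes stood in the same order in both libraries apart from pDC-like cells, at 20.6% in WT and 7.89% in KO.

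H2-Eb2, a further class II beta gene on the list of pathway genes, was singled out after its values had been seen because B cell-like and migratory DC-like cells, which had the highest H2-DMb2 shares, also had the highest H2-Eb2 levels of the presenting classes. It had 121 CPM in WT and 144 CPM in KO migratory DC-like cells and 100.3 and 112 CPM in B cell-like cells. In cDC2-like cells it had 15.4 and 15.8 CPM, and in cDC1-like cells 2.44 and 2.97 CPM. H2-DMa (chr17:34119541-34139101, plus strand), the common alpha chain of DM, had 320 and 391 CPM in B cell-like and 345 and 317 CPM in migratory DC-like cells. It was higher in cDC2-like cells, at 965 and 992 CPM, and in cDC1-like cells, at 821 and 835 CPM.

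**Figure D3:**
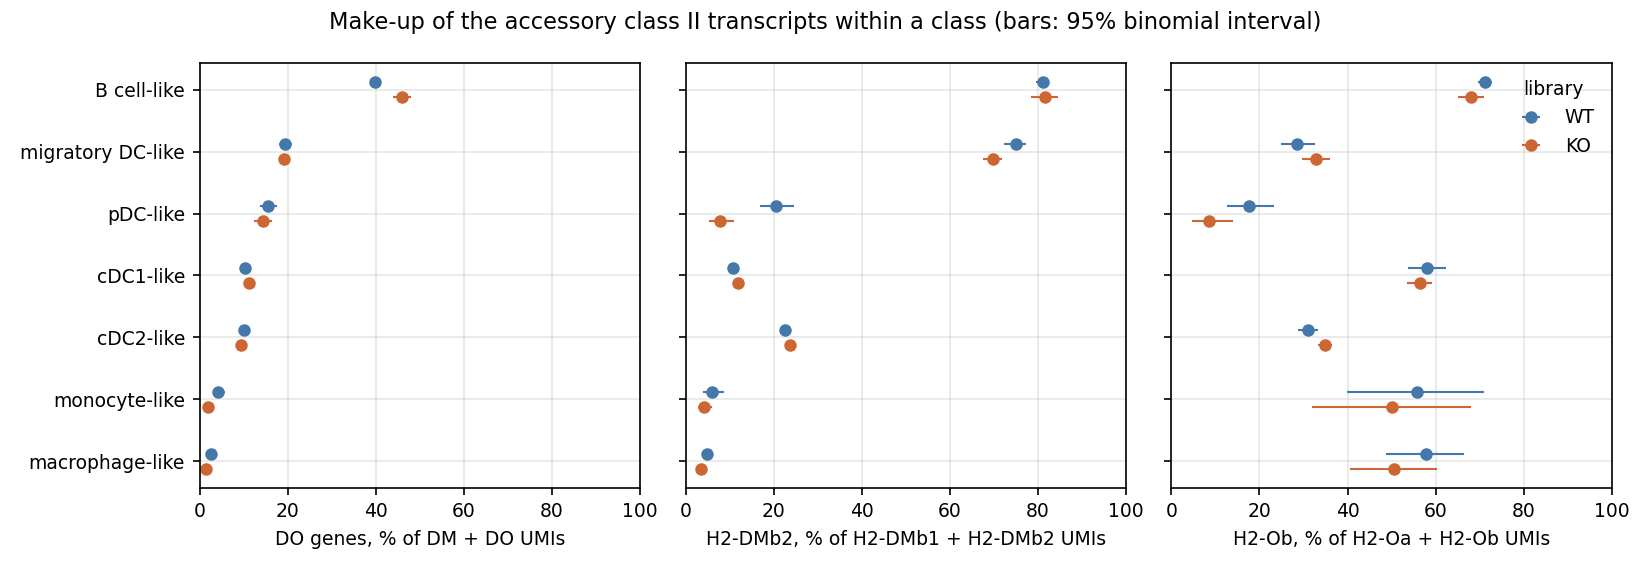
Shares of UMIs within a class for 7 cell classes: DO genes among DM and DO UMIs, H2-DMb2 among both DM beta genes and H2-Ob among both DO genes (percent, bars for the 95% binomial interval). B cell-like cells lie at 39.8% and 45.9% for DO and above 80% for H2-DMb2, and macrophage-like and monocyte-like cells lie below 6% for both with the clustering used here.

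Other clusterings moved the low shares. At Leiden resolution 0.6, with 64 WT macrophage-like cells, H2-DMb2 made up 10.8% of both beta genes and DO 9.21% of DM and DO UMIs there, and DO 0% in the 49 KO cells. With the libraries centred before clustering, WT monocyte-like cells had 15.7% and 7.76%, and DO made up 5.11% in place of 14.3% in KO pDC-like cells, which then included the Cd209d-led cells. With the highest doublet scores left out, the H2-DMb2 share was 13.2% in KO pDC-like, 2.45% in KO monocyte-like and 8.78% in WT monocyte-like cells, and the DO share was 0.659% in KO monocyte-like cells. Without cells holding a B cell marker UMI, DO made up 1.47% in WT macrophage-like cells.

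The DO genes, which restrain peptide exchange, were highest in B cell-like cells. H2-Oa and H2-Ob together had 549 CPM in WT and 764 CPM in KO there, against 251 and 224 CPM in cDC2-like, 216 and 229 CPM in cDC1-like, 178 and 155 CPM in migratory DC-like and 125 and 110 CPM in pDC-like cells. The cDC2-like and cDC1-like ranges overlapped. DO thus made up 39.8% and 45.9% of DM and DO UMIs in B cell-like cells, 19.4% and 19.2% in migratory DC-like cells, 15.6% and 14.3% in pDC-like cells and 9.38% to 11.3% in the conventional DC-like classes.

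In macrophage-like and monocyte-like cells the DO sum was far below that of the other presenting classes. The 25.6 CPM in WT and 11.6 CPM in KO macrophage-like cells and the 24.9 and 8.82 CPM of monocyte-like cells compare with 22.6 and 17.2 CPM in CD8 T cell-like cells, 24.8 and 23.8 CPM in NK cell-like cells and a lower 12.4 and 14.6 CPM in CD4 T cell-like cells. An H2-Oa UMI was found in 2.93% of WT and 3.09% of KO macrophage-like cells (medians of 6352 and 8834 UMIs per cell), and in 8.59% and 6.46% of CD8 T cell-like cells (medians of 5410 and 5091). For H2-Oa, CD8 T cell-like cells had 16.4 and 12.8 CPM and CD4 T cell-like cells 4.24 and 8.33 CPM. The free RNA level of H2-Oa therefore cannot be told from CD8 T cell-like cells alone. H2-Ob, at 14.8 and 5.86 CPM in macrophage-like cells, stood at 6.20 and 4.47 CPM in CD8 T cell-like cells. In WT it was thus above that level. Without cells holding a B cell marker UMI, H2-Ob in macrophage-like cells had 8.39 and 5.62 CPM, from 32 and 49 UMIs.

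The beta chain gene H2-Ob (chr17:34238903-34254414, plus strand) and the alpha chain gene H2-Oa did not follow each other. H2-Ob led in B cell-like cells, with 391 CPM in WT and 520 CPM in KO against 158 and 245 CPM of H2-Oa. In cDC2-like cells H2-Oa led, with 173 and 146 CPM against 78.0 and 78.3 CPM of H2-Ob. The pDC-like cells lay at the far end, with 103 and 101 CPM of H2-Oa and 21.9 and 9.43 CPM of H2-Ob.

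Counted per cell, an H2-Oa UMI was present in 47.9% of WT and 53.8% of KO pDC-like cells (medians of 7621 and 9862 UMIs) and an H2-Ob UMI in 13.7% and 8.39%, against 3.18% and 2.04% for H2-Ob in CD8 T cell-like cells. For depth, cells with at least 2000 UMIs were thinned to 2000 and shallower cells were left out, here and below. This left out 4 WT and 0 KO pDC-like and 42 and 5 CD8 T cell-like cells. After thinning, H2-Oa was seen in 16.4% and 21.7% of pDC-like cells and in 3.50% and 3.46% of CD8 T cell-like cells. H2-Ob was seen in 4.35% and 2.10% against 1.27% and 0.692%. The thinned H2-Ob share of KO pDC-like cells rests on 3 of 143 cells.

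Ciita (chr16:10480059-10528418, plus strand), the transactivator, was highest in cDC1-like cells, with 359 CPM in WT and 372 CPM in KO. The cDC2-like cells had 275 and 314 CPM although their classical level was the highest of all. B cell-like cells had 224 and 177 CPM and overlapped the migratory DC-like cells at 169 and 177 CPM. Macrophage-like cells had 93.6 and 96.0 CPM, monocyte-like cells 60.8 and 37.8 CPM and pDC-like cells 49.2 and 43.8 CPM, and the last 2 ranges overlapped. CD8 T cell-like cells had 8.52 CPM (66 UMIs) and 1.92 CPM (3 UMIs).

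Per 10000 classical UMIs, Ciita UMIs numbered 157 in WT and 148 in KO cDC1-like cells, 105 and 111 in cDC2-like, 108 and 106 in migratory DC-like and 107 and 92.4 in macrophage-like cells. In the last 3 of these classes the ratio differed little, although their classical levels did not overlap. B cell-like cells had 266 and 164 and monocyte-like cells 317 and 231. The pDC-like cells had 121 and 114. The 95% counting intervals were 252 to 282 and 144 to 187 in B cell-like cells and 259 to 383 and 194 to 273 in monocyte-like cells, so that the KO B cell-like interval overlapped the cDC1-like intervals of 147 to 168 and 141 to 155.

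A Ciita UMI was found in 88.0% of WT and 88.2% of KO cDC1-like cells, in 79.2% and 86.2% of cDC2-like cells and in 29.4% and 34.5% of macrophage-like cells, against 3.32% and 1.02% of CD8 T cell-like cells. The KO cells were deeper in most of these classes (medians of 11831.5 and 15368.5 UMIs in cDC1-like, 11171 and 13808.5 in cDC2-like cells). Thinned to 2000 UMIs per cell, the shares were 54.6% and 53.7% in cDC1-like cells, 37.2% and 40.3% in cDC2-like cells, 13.3% and 14.97% in macrophage-like cells and 1.49% and 1.04% in CD8 T cell-like cells. Thinning left out 195 of 752 WT and 147 of 1069 KO macrophage-like cells, so their shares cover the deeper cells only. It left out 25 and 22 cDC1-like and 5 and 21 cDC2-like cells.

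**Figure D4:**
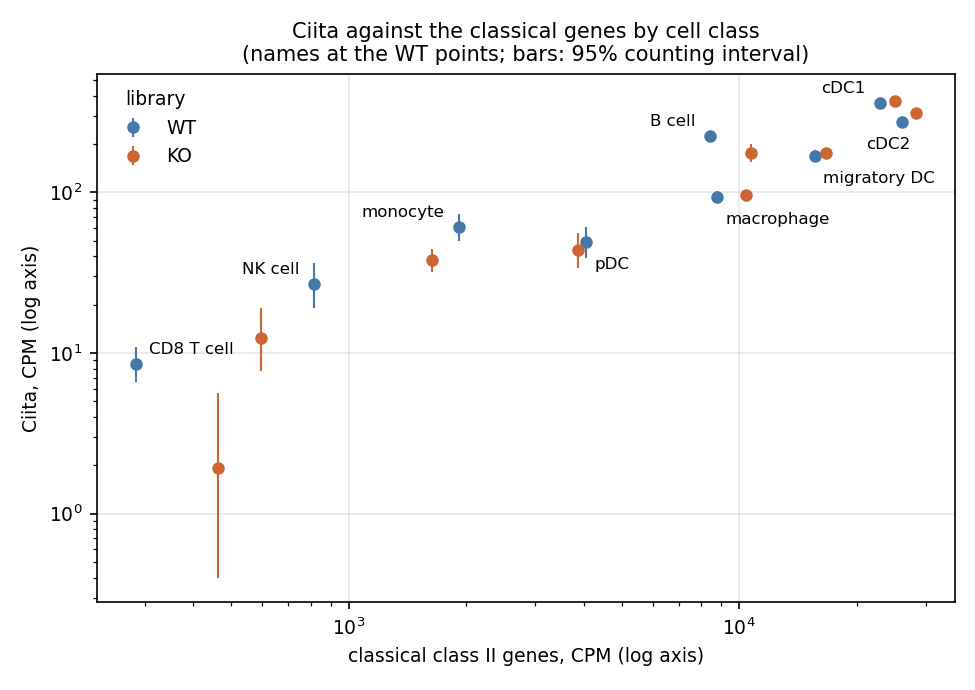
Ciita level (CPM, log axis) against the summed classical level (CPM, log axis) in 9 cell classes of both libraries, with bars for the 95% counting interval. At a like classical level, the B cell-like points (224 and 177 CPM of Ciita) lie above the macrophage-like points (93.6 and 96.0 CPM).

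Across the 32 profiles of 16 named classes in 2 libraries, Pearson's r of log2(CPM + 10) with the classical sum was 0.99 for Cd74, 0.96 for Ciita, 0.92 for H2-DMa, 0.74 for H2-Oa and 0.72 for H2-Ob. Among 7023 other genes that reached 50 CPM in a class, the 5 most like the classical sum were Ifi30 (r = 0.90), Pkib (0.88), Cd83 (0.87), Napsa (0.85) and Cd40 (0.84). Ifi30 encodes the lysosomal thiol reductase that unfolds antigens, and Cd83 a surface protein that keeps class II from being degraded. The 5 most like Ciita were Ifi30 (0.88), Ccdc28b (0.86), Tbc1d9 (0.85), Pkib (0.84) and Cd83 (0.83). Profiles of a class share library, depth and cells between genes, so these values describe and do not test.

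Between the libraries, the members of the conventional and migratory dendritic classes differed little. A gene was counted as higher or lower where its KO CPM was at least 1.5-fold from its WT CPM and it had at least 50 UMIs over both libraries. In cDC1-like cells 0 of 10 members were higher and 0 lower, where 4.23% of the 8235 genes with enough UMIs were higher and 3.35% lower. Likewise 0 of 10 were higher and 0 lower in cDC2-like cells (4.56% and 4.05% of 10506 genes) and in migratory DC-like cells (4.72% and 6.71% of 8290 genes).

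The classical sum had a log2 ratio of KO over WT of 0.13 (95% counting interval 0.12 to 0.15) in cDC1-like, 0.11 (0.11 to 0.12) in cDC2-like and 0.10 (0.08 to 0.11) in migratory DC-like cells, the last turning to -0.05 when the cells with the highest doublet scores were left out. Ciita had ratios of 0.05 (-0.07 to 0.17), 0.19 (0.11 to 0.27) and 0.06 (-0.10 to 0.22) in these classes, the first turning to -0.16 when all cells weighed equally and the third to -0.09 when the highest doublet scores were left out. The median ratio of the members was 0.05 in cDC1-like, 0.04 in cDC2-like, 0.02 in migratory DC-like, -0.05 in macrophage-like, -0.29 in monocyte-like (8 members with enough UMIs), -0.11 in pDC-like and 0.31 in B cell-like cells. Over all genes with enough UMIs the median ratio was between -0.06 and 0.02 in the 7 presenting classes. Summed B cell markers stood at 295 CPM in WT and 155 in KO cDC1-like cells, 305 and 142 in cDC2-like cells and 253 and 55.6 in migratory DC-like cells, with 9 of 9 detected in each. In cDC2-like cells the 9 migratory DC markers stood at a summed 407 CPM in WT with Nudt17 at 0 and 892 CPM in KO and the 5 erythroid markers at 547 and 0.328 CPM, and their part in the ratios was not tested. Without cells holding a B cell marker UMI the classical ratios of the 3 classes were 0.12, 0.08 and 0.10.

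**Figure D5:**
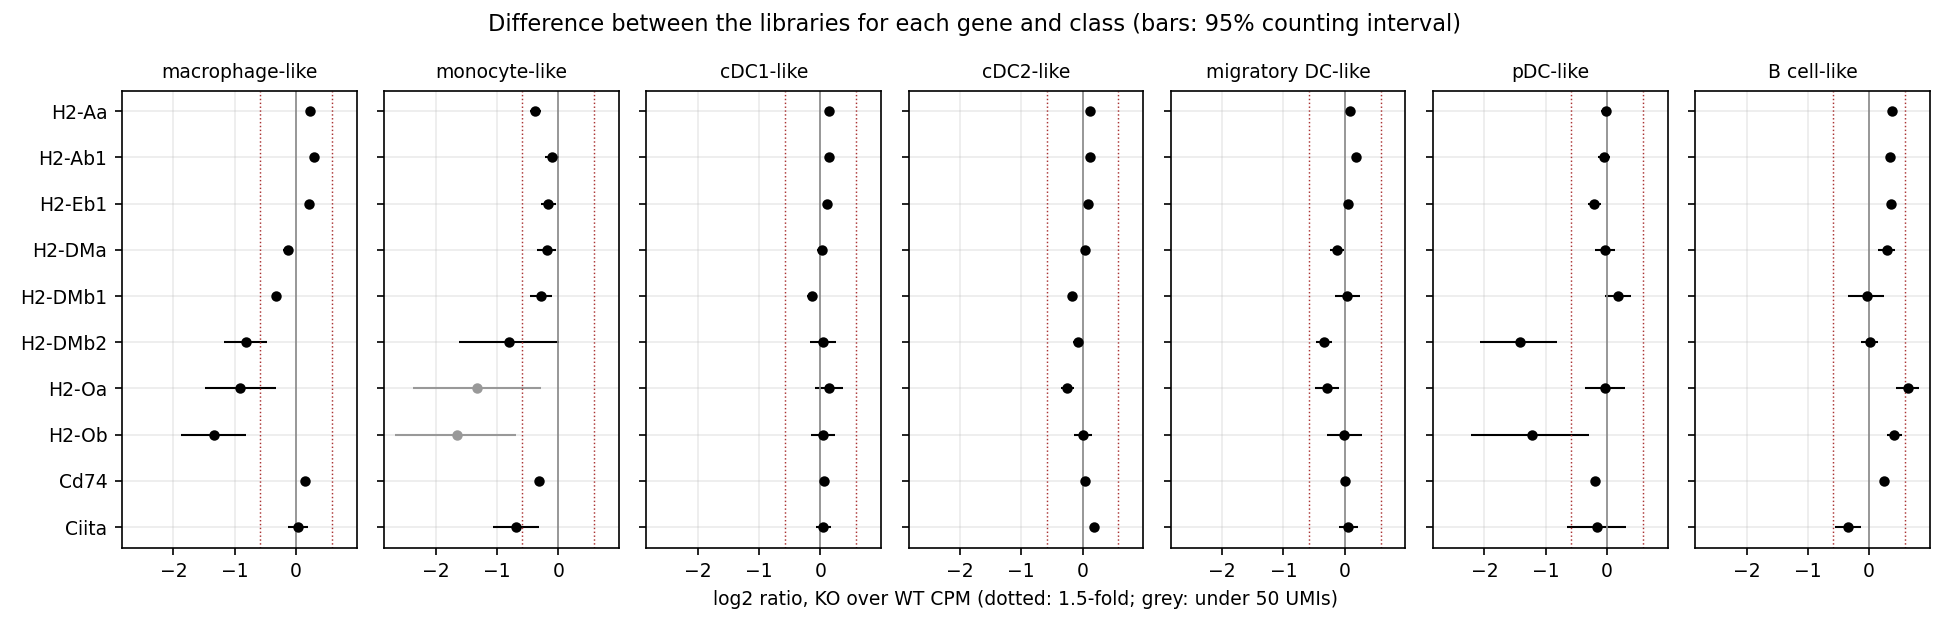
Log2 ratio of KO over WT CPM for the 10 members in 7 cell classes, with the 95% counting interval, dotted lines at 1.5-fold and grey points for genes under 50 UMIs. The classical genes and Cd74 stay within 1.5-fold in every class. Of the points not in grey, H2-DMb2 lies lower in KO macrophage-like, monocyte-like and pDC-like cells, and H2-Ob in macrophage-like and pDC-like cells. H2-Oa lies lower in macrophage-like but higher in B cell-like cells, and Ciita lies lower in monocyte-like cells.

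Macrophage-like cells, which had the most Kcnj2 of the 4 classes in which it was measured here (macrophage-like, monocyte-like, cDC2-like and CD8 T cell-like), had slightly more classical transcript in KO and less DM when summed over the class. The classical sum had a ratio of 0.25 (0.23 to 0.26), with H2-Aa at 0.23, H2-Ab1 at 0.29 and H2-Eb1 at 0.22, and Cd74 had a ratio of 0.15 (0.13 to 0.16). H2-DMa at -0.13 (-0.21 to -0.06) and H2-DMb1 at -0.33 (-0.40 to -0.25) went the other way, and the DM sum turned from -0.25 to 0.11 with a coarser clustering (Leiden resolution 0.6), in which only the cluster of 64 and 49 cells led by Ccl8 kept the macrophage-like name. Ciita had a ratio of 0.04 (-0.13 to 0.20), which turned to -0.07 with at most 10% mitochondrial UMIs per cell. In the Arg1-led cluster the classical ratio was 0.38 (0.36 to 0.40) and in the C1q-led cluster 0.14 (0.11 to 0.17).

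By the 1.5-fold limit, 0 of 10 members were higher in KO macrophage-like cells and 3 were lower, where 5.59% of 9542 genes were higher and 5.76% lower. The 3 were H2-DMb2 at -0.82 (-1.17 to -0.47), H2-Oa at -0.91 (-1.48 to -0.33) and H2-Ob at -1.34 (-1.87 to -0.81). B cell markers were also lower in KO: all 9 were detected in both libraries, with a summed 324 CPM in WT and 72.4 CPM in KO macrophage-like cells, and 17.4% of WT and 3.84% of KO cells held a UMI of Cd79a, Cd79b or Ms4a1. All 5 T cell markers were detected as well, at a summed 178 and 35.4 CPM. Without the cells holding a B cell marker UMI the 3 ratios were -0.52 (-0.93 to -0.09), -0.25 (-0.98 to 0.51) and -0.58 (-1.25 to 0.11), none of them past 1.5-fold, though the H2-DMb2 interval lay below 0 and H2-Ob was close to the limit, and the classical ratio was 0.26. The cause of the lower values was not tested.

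In monocyte-like cells all 10 members had lower values in KO, within 1.5-fold for the classical genes and Cd74. The classical sum had a ratio of -0.23 (-0.29 to -0.17), Cd74 of -0.31 (-0.36 to -0.26) and the DM sum of -0.24 (-0.35 to -0.12). Of the 8 members with at least 50 UMIs, 0 were higher and 2 lower by 1.5-fold, where 6.53% of 7089 genes were higher and 4.73% lower. These were H2-DMb2 at -0.81 (-1.62 to 0.02), from 25 and 30 UMIs, and Ciita at -0.69 (-1.06 to -0.31), from 105 and 137 UMIs. Ciita was seen in 13.4% of WT and 5.99% of KO monocyte-like cells thinned to 2000 UMIs, and its ratio was -0.57 without cells holding a B cell marker UMI, which is inside 1.5-fold.

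The markers of T cells differed more than class II in that class, at a summed 229 CPM in WT and 32.0 CPM in KO for 5 of 5 detected markers, and their part in the difference was not tested. The classical ratio of monocyte-like cells reached -0.72 with the highest doublet scores left out, and no cluster was monocyte-like at Leiden resolution 0.6.

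Among the 7 presenting classes B cell-like cells had the largest ratio of the classical sum, at 8405 CPM in WT, 10746 CPM in KO and a ratio of 0.35 (0.33 to 0.38). H2-Oa, at 0.63 (0.44 to 0.82), was the 1 member of 10 that was higher by 1.5-fold and 0 were lower, where 4.88% of 8582 genes were higher and 11.7% lower. Ciita had a ratio of -0.34 (-0.55 to -0.14). The 6 plasma cell markers stood at a summed 87.4 CPM in WT, with Tnfrsf17 at 0, and 721 CPM in KO, and the 9 migratory DC markers at 510 and 770 CPM, with Nudt17 at 0 in KO, and their part in these ratios was not tested. A shallow cluster led by Ms4a1 and Bank1 held 892 of the 1823 WT cells (median 1210 UMIs) but 61 of the 393 KO cells (median 1002), and had 6706 CPM of classical transcripts in WT and 6968 CPM in KO.

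In the other B cell-like cluster, led by Ighd and Ebf1, the classical level was 9937 and 11265 CPM, so that the ratios within the 2 clusters were 0.06 (-0.03 to 0.14) and 0.18 (0.15 to 0.21). The shallow cluster was left out as a choice made after seeing the data. Without it H2-Oa had a ratio of 0.12 and the DO sum of 0.11, against 0.48 for the DO sum with it, and Ciita stayed at -0.40.

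In pDC-like cells the classical sum was 4057 CPM in WT and 3856 CPM in KO, a ratio of -0.07 (-0.12 to -0.02) that turned to 0.02 at Leiden resolution 0.6, to 0.03 when all cells weighed equally, to 0.18 without cells holding a B cell marker UMI and to 0.85 when the libraries were centred before clustering. Centring put a cluster of 28 WT and 144 KO cells led by Cd209d and Apod, the leading genes of a cDC2-like cluster above, under the pDC-like name. By the 1.5-fold limit 0 of 10 members were higher and 2 lower, where 4.65% of 6553 genes were higher and 4.07% lower. H2-DMb2 had a ratio of -1.42 (-2.06 to -0.81) from 91 and 30 UMIs, and H2-Ob of -1.22 (-2.22 to -0.30) from 37 and 14 UMIs. B cell markers were detected 9 of 9 in both libraries, at a summed 1130 and 928 CPM, and T cell markers stood at 517 and 38.4 CPM. A UMI of Cd79a, Cd79b or Ms4a1 was held by 87 of 211 WT and 56 of 143 KO pDC-like cells (41.2% and 39.2%). Without cells holding a B cell marker UMI, H2-Ob had 13 UMIs in each library and a ratio of 0.05 (-1.18 to 1.28), and H2-DMb2 had a ratio of -1.15 (-2.06 to -0.29), which turned to 0.24 in the full class when the libraries were centred before clustering.

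Other genes of the pathway were counted over a list of 37 that covers transcription factors, interferon-gamma signalling, antigen processing, class II turnover and co-stimulation. Their median log2 ratio lay between -0.06 in B cell-like and 0.13 in migratory DC-like cells. Their counts past 1.5-fold were near or below the all-gene shares given above for each class, so they are no result about the list. In macrophage-like cells 2 of the 35 with enough UMIs were higher by 1.5-fold in KO and 0 lower, beside 5.59% and 5.76% of all genes. They were Cd83, with 634 and 971 CPM, and Socs1, the feedback inhibitor of interferon signalling, with 19.4 and 29.7 CPM. The lowest ratios there were -0.41 for Rfxank, an RFX subunit, and -0.17 for Ifi30. In cDC2-like cells 2 of 35 were higher and 0 lower, beside 4.56% and 4.05% of all genes: Socs1, with 9.37 and 21.1 CPM, and the co-stimulatory receptor Cd40, with 46.1 and 74.3 CPM, a gene that migratory DC-like cells carried at 128 and 189 CPM, while the lowest were the protease Ctsl at -0.56 and Rfxank at -0.47. The cDC1-like cells had 0 higher and 1 lower of 32, beside 4.23% and 3.35% of all genes. The lower one was Socs1 at 33.7 and 22.0 CPM, next to Ctsd at -0.45, and the highest were Jak2 at 0.57 and Cd80 at 0.44.

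Monocyte-like and migratory DC-like cells had 0 of 31 and 0 of 35 listed genes past 1.5-fold in either direction. The highest ratios in monocyte-like cells were Cd40 at 0.56 and Cd83 at 0.54, and Socs1 was among the lowest at -0.43. In migratory DC-like cells the extremes were Cd40 at 0.56, the invariant chain protease Sppl2a at 0.38, the interferon-gamma receptor chain Ifngr1 at -0.57 and the protease Ctsd at -0.54. In pDC-like cells 1 of 28 was higher, the NF-Y subunit Nfyc from 25 and 36 UMIs, and 1 lower, Irf4 from 37 and 19 UMIs, and both intervals included 0, beside 4.65% and 4.07% of all genes. March1 at 0.58 and Ifngr1 at -0.48 came next. Beside 4.88% and 11.7% of all genes, B cell-like cells had 1 of 35 higher, Cd86 at 108 and 169 CPM, and 2 lower, Ifi30 at 806 and 429 CPM and the kinase Jak2 at 72.9 and 40.5 CPM, and Rfxap, an RFX subunit, had a ratio of 0.58.

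Rfx5, the DNA-binding subunit of the RFX complex on which Ciita docks, was low everywhere, from 4.63 CPM in WT and 4.13 CPM in KO monocyte-like cells to 21.5 and 19.1 CPM in B cell-like cells, and its r with the classical sum was 0.29. Ctss, the protease that trims the invariant chain, had 1856 and 1995 CPM in macrophage-like and 682 and 638 CPM in cDC1-like cells. March1, the ligase that tags class II for degradation, had 245 and 235 CPM in cDC1-like, 272 and 246 CPM in B cell-like and 105 and 91.5 CPM in cDC2-like cells, but 7.31 and 6.12 CPM in migratory DC-like cells. Cd83, which opposes it, had 702 and 868 CPM in migratory DC-like cells, within the range of the macrophage-like levels given above.

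The libraries differed in the classes that their class II transcripts came from. Of the WT cells 6.61%, and of the KO cells 19.0%, were cDC2-like, and these gave 37.3% and 53.1% of all classical UMIs, the largest single source in both. B cell-like cells gave 9.55% of the WT and 1.73% of the KO classical UMIs, but 37.6% and 13.8% of the DO UMIs. Macrophage-like cells gave 9.14% and 11.7%, and cDC1-like cells 11.7% and 15.6%. Unnamed clusters gave 17.3% of the WT and 4.35% of the KO classical UMIs. Of these, 50403 WT and 8776 KO UMIs lay in a cluster led by Ms4a1 and Cd79a that stayed unnamed for its doublet score, against 45761 and 14062 UMIs in the B cell-like class, so the B cell-like share depends on the naming. That cluster had a median of 14261 UMIs per cell in WT and 13947 in KO, against 2435 and 3151 in the B cell-like class. How many of its barcodes hold more than 1 cell was not tested. The shares also depend on the cells and the depth of each class in 1 library.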

How the data were processed

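Single-cell UMI counts of 2 libraries (1 WT, 1 KO) were analysed. The authors deposited raw UMI counts per gene and barcode, whole numbers with no normalization, and no barcode has fewer than 500 UMIs. Per the submitters' processing notes, bcl2fastq 2.20, Cell Ranger 3.1.0, Seurat 4.0.1 and GRCm38 were used, whereas per the file headers the matrices came from Cell Ranger 4.0.0. The members, gene lists and alternatives were chosen with earlier results of these data known.

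Barcodes under 200 genes or above 15% mitochondrial UMIs were dropped, the latter being 734 in WT and 665 in KO. Scrublet in scanpy 1.11.5 marked 0 WT and 2 KO cells as doublets, so it did not work as a filter, and doublets remain in the classes. Counts were scaled to 10000 UMIs per cell, logged, and clustered on 2000 variable genes without 13 class II gene symbols (30 components, 15 neighbours, Leiden resolution 1.0, 28 clusters, no integration). A cluster took the name of the best list with at least 3 markers found in at least 10% of its cells and 2-fold above other cells. No name was given where cell cycle genes were among the leading 10, where the mean doublet score reached 0.15, where another class had more markers among those 10, or where cells were shallow and none of the 10 was an own marker. The clusters had been seen when these limits were chosen.

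UMIs were summed per class and library and divided by the class total (CPM) with exact Poisson intervals. Log2 ratios carry exact conditional binomial intervals and shares exact Clopper-Pearson intervals, all at 95% and for counting error only. No p-value was computed, because each genotype is 1 library. The text names all 10 members, the listed pathway genes with the 2 highest and 2 lowest ratios of a class (at least 50 UMIs), and H2-Eb2, with Rfx5, Ctss, March1 and Cd83 across classes and the 5 genes most like each pattern. A pathway gene that this rule names is not reported here. The ratio and interval code was tested on simulated data. TMM factors came from edgeR 4.0.16. Gene positions are from GENCODE M21, in which all 55450 gene identifiers of the files were found.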

Additional observations from a re-analysis of the deposited data

Results flagged for a closer look

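Classical class II transcripts also appeared outside the classes compared, above the CD8 T cell-like level of 286 CPM in WT and 462 CPM in KO. Barcodes removed for mitochondrial UMIs held 2626 CPM in WT and 5091 CPM in KO. Cells of unnamed clusters held 7957 CPM and 8383 CPM, from 1747 WT and 432 KO cells that enter no comparison of the report. Regulatory T cell-like cells held 7858 CPM in WT and 3867 CPM in KO, but the 10 WT and 13 KO cells with the most classical UMIs carried 66.8% and 91.6% of them, and the median cell had 4.86 and 3.45 classical UMIs per 10000. What these few cells are was not tested.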

How the results depend on the processing

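No alternative gave a p-value and no library could be left out, since each genotype is 1 library. No paired analysis was possible because the groups share only 1 replicate number and each has 1 library. The values below fell outside the counting interval of those in the report (counts of genes, by over 1.5 times), and the cause was not tested except where the class itself changed. For the log2 ratio of the classical sum, with class II genes kept in the clustering it was 0.19 in macrophage-like, 0.11 in cDC1-like, 0.068 in migratory DC-like, -0.14 in pDC-like and 0.29 in B cell-like cells. With Leiden resolution 0.6 it was 0.48 in macrophage-like, 0.18 in cDC2-like, 0.19 in migratory DC-like, 0.019 in pDC-like and 0.28 in B cell-like cells. At that resolution the macrophage-like class was 64 WT and 49 KO cells. With Leiden resolution 1.5 it was 0.29 in macrophage-like, -0.50 in monocyte-like, 0.020 in migratory DC-like and 0.28 in B cell-like cells. With components centred per library it was 0.20 in macrophage-like, -0.35 in monocyte-like, 0.25 in cDC2-like, 0.37 in migratory DC-like, 0.85 in pDC-like and 0.28 in B cell-like cells. The pDC-like class then took in 28 WT and 144 KO cells led by Cd209d. With at most 10% mitochondrial UMIs it was 0.17 in macrophage-like, -0.33 in monocyte-like, 0.085 in cDC2-like, 0.19 in migratory DC-like, -0.19 in pDC-like and 0.26 in B cell-like cells. With totals without members, mitochondrial and ribosomal protein genes it was 0.22 in macrophage-like and 0.10 in cDC2-like cells. With all cells weighing equally it was 0.35 in macrophage-like, 0.18 in cDC1-like, 0.16 in migratory DC-like, 0.026 in pDC-like and 0.47 in B cell-like cells. With clusters of few UMIs left out (chosen after seeing the data) it was 0.38 in macrophage-like, 0.069 in migratory DC-like and 0.18 in B cell-like cells. With the highest 6% of doublet scores left out it was -0.72 in monocyte-like, 0.16 in cDC1-like, 0.15 in cDC2-like, -0.051 in migratory DC-like and 0.52 in B cell-like cells. With the CD8 T cell-like level subtracted it was -0.33 in monocyte-like cells. With cells with a B cell marker UMI left out it was -0.35 in monocyte-like, 0.12 in cDC1-like, 0.084 in cDC2-like and 0.18 in pDC-like cells. With TMM factors it was 0.14 in cDC2-like, 0.12 in migratory DC-like and 0.42 in B cell-like cells. Of the named genes past 1.5-fold, a pair changed direction, both in pDC-like cells. H2-DMb2 had 0.24 with components centred per library and H2-Ob 0.052 with cells holding a B cell marker UMI left out. Ratios within 1.5-fold changed direction as well. In pDC-like cells Ciita went from -0.17 up to 1.05, Cd74 from -0.20 up to 0.60 and the DM sum from -0.03 up to 1.02. The DM sum also went from -0.18 up to 0.15 in migratory DC-like and from -0.06 up to 0.04 in cDC2-like cells. In cDC1-like cells it went from -0.06 up to 0.02 and in B cell-like cells from 0.12 down to -0.05. Cd74 in migratory DC-like cells went from 0.005 down to -0.15. With a minimum of 20 UMIs, the number of all genes past the limit was 1963 in macrophage-like, 1620 in monocyte-like, 1419 in cDC1-like, 1618 in cDC2-like, 1881 in migratory DC-like, 1384 in pDC-like and 2438 in B cell-like cells. With no minimum but 1 UMI in each library, the number of all genes past the limit was 4991 in macrophage-like, 4092 in monocyte-like, 3817 in cDC1-like, 4192 in cDC2-like, 4854 in migratory DC-like, 3854 in pDC-like and 4647 in B cell-like cells. With 2-fold in place of 1.5-fold, the number of all genes past the limit was 310 in macrophage-like, 184 in monocyte-like, 126 in cDC1-like, 256 in cDC2-like, 253 in migratory DC-like, 113 in pDC-like and 428 in B cell-like cells. With the limits of the report these were 1083, 798, 624, 905, 947, 572 and 1425. Thinned to 2000 UMIs, the share of cells with a UMI differed between KO and WT by 3.14 percentage points for Ciita in cDC2-like cells (7.04 unthinned), 8.50 for H2-Oa in B cell-like cells (17.4 unthinned) and 6.61 for H2-Ob in B cell-like cells (15.6 unthinned). Of the B cell-like cells, thinning left out 739 of 1823 in WT and 61 of 393 in KO. Both B cell-like differences after thinning thus cover the deeper cells only. At Leiden resolution 0.6 no cluster was monocyte-like, and DO, H2-Oa and H2-Ob in macrophage-like cells gave no ratio there. Subtracting the CD8 T cell-like level left no ratio for monocyte-like DO or macrophage-like H2-Oa. At the depth of these libraries DO in macrophage-like and monocyte-like cells rested on 32 to 128 UMIs.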
